A study of Mus musculus with 12 samples.

Results

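MAP kinase phosphatases of the Dusp family (dual-specificity phosphatases) were followed across the 4 groups of an array study of activated mouse T cells. The family is represented by 10 genes, Dusp1, Dusp2, Dusp4, Dusp5, Dusp6, Dusp7, Dusp10, Dusp14, Dusp16 and Dusp22, of 22180 genes measured. These 10 are a selection and not every MAP kinase phosphatase of the family. A further 14 Dusp genes, Dusp8 and Dusp9 among them, are described apart. A row of the deposited table was taken for a gene when its annotation carried exactly that 1 symbol, and the brightest row over the 12 arrays stood for the gene. All 10 genes were found, 9 of them with 1 row each. No filter on dim signals was applied, so every member entered every comparison.

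MAP kinases (ERK, JNK and p38) are switched on when a kinase adds phosphate to a threonine and a tyrosine of their activation loop. A dual-specificity phosphatase removes both phosphates and so switches the kinase off. Many of these phosphatases are themselves transcribed in response to MAP kinase activity and act as negative feedback, and in T cells they limit signalling downstream of the T cell receptor and of CD28.

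Natural regulatory T cells (nTregs), which depend on the transcription factor Foxp3, came from spleens of B6.Foxp3GFP mice, a reporter line in which Foxp3-expressing cells are green. T cells depleted of Tregs came from mice that carried this reporter and the red transgene Tg(CAG-DsRed*MST)1Nagy, and the strain label of every array, nTregs included, is that of this cross. All groups shared the same culture: 1 part nTregs with 10 parts Treg-depleted T cells, given 2 days of activation by anti-CD3/CD28 beads and human IL-2 (500 U/mL), and then 2 days of either azacitidine at 1 µM (AzaC) or PBS. AzaC resembles cytidine and blocks DNA methyltransferases. The sort took nTregs as CD4+, DsRed-negative and Foxp3-GFP+ cells and effector cells, called CD4 cells here, as CD4+, DsRed+ and Foxp3-GFP-negative cells. There were 3 arrays in each of the groups CD4 PBS, CD4 AZA, nTreg PBS and nTreg AZA. The labels give neither the age of the mice nor the source of the replicates (separate animals or cultures), so the p-values speak only of the spread among these samples, part of which may be technical.

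Values are RMA signals on the log2 scale, in which 1 unit is a doubling of signal, and array medians lay between 6.67 and 6.80. Foxp3 averaged 8.05 in CD4 PBS, 9.62 in CD4 AZA, 12.34 in nTreg PBS and 12.69 in nTreg AZA, and all 5 Treg markers were higher in nTregs than in CD4 cells with either treatment, as the labels state. The array nTreg PBS 1 stood apart, with a mean correlation with the other arrays of 0.972 over all genes. The array CD4 PBS 3 had 0.979, and the other 10 lay between 0.983 and 0.987. Member calls that turn on nTreg PBS 1 are given with and without it.

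The promoters of 3 members are shown because Dusp5 and Dusp10 differed in opposite directions between nTregs and CD4 cells, whichever array was left out under PBS, and because Dusp1 was higher in nTregs with AzaC. Each run is the 250 bases before the annotated start, 5′ to 3′ on the gene's strand, from RefSeq on GRCm38.p6. Capitals mark motif matches. The Dusp1 window is chr17:26508473-26508722 on the minus strand, the Dusp5 window chr19:53528895-53529144 on the plus strand and the Dusp10 window chr1:184034131-184034380 on the plus strand.
Dusp1: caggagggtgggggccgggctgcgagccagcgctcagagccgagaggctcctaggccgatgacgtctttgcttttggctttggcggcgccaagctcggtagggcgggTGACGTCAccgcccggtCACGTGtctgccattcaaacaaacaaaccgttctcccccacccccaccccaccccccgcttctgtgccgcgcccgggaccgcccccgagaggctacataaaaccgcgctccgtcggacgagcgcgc
Dusp5: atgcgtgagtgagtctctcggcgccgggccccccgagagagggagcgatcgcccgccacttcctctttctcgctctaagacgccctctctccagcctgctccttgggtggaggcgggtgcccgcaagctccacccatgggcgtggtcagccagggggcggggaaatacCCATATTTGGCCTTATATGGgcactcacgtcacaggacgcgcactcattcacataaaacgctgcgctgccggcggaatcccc
Dusp10: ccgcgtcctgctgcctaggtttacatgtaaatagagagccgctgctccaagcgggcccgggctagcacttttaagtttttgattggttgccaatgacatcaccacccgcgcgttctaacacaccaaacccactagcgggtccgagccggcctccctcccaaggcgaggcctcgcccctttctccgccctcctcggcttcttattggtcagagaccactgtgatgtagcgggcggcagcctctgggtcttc
Windows were available for 9 of the 10 members, and Dusp4 had no entry. The motifs searched on both strands were the cAMP response element (CRE, TGACGTCA), the AP-1 site (TGANTCA), the E-box CACGTG, the forkhead site TGTTTAC, the CArG box and the NF-kB site. Dusp1 held 1 CRE at position −143 and 1 E-box at −126 from the start. Dusp5 held a pair of adjoining CArG boxes that begin at −82 and −72. Dusp10 held none of the 6 motifs. Of the other members, Dusp2 held an E-box and Dusp22 held a pair of overlapping NF-kB matches. A CRE stood in 1.546% of all 32851 windows of this length, a CArG box in 1.467%, an E-box in 6.021%, an NF-kB match in 5.933%, an AP-1 site in 6.749% and a forkhead site in 3.166%. CpG dinucleotides, the sites of DNA methylation, numbered 28 in the Dusp1 window, 21 in that of Dusp5 and 17 in that of Dusp10. Over the 9 windows they ranged from 16 in Dusp6 to 38 in Dusp22, against a median of 6 over all windows. These matches describe the letters of the windows, and no binding or methylation was measured here.

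**Figure D1:**
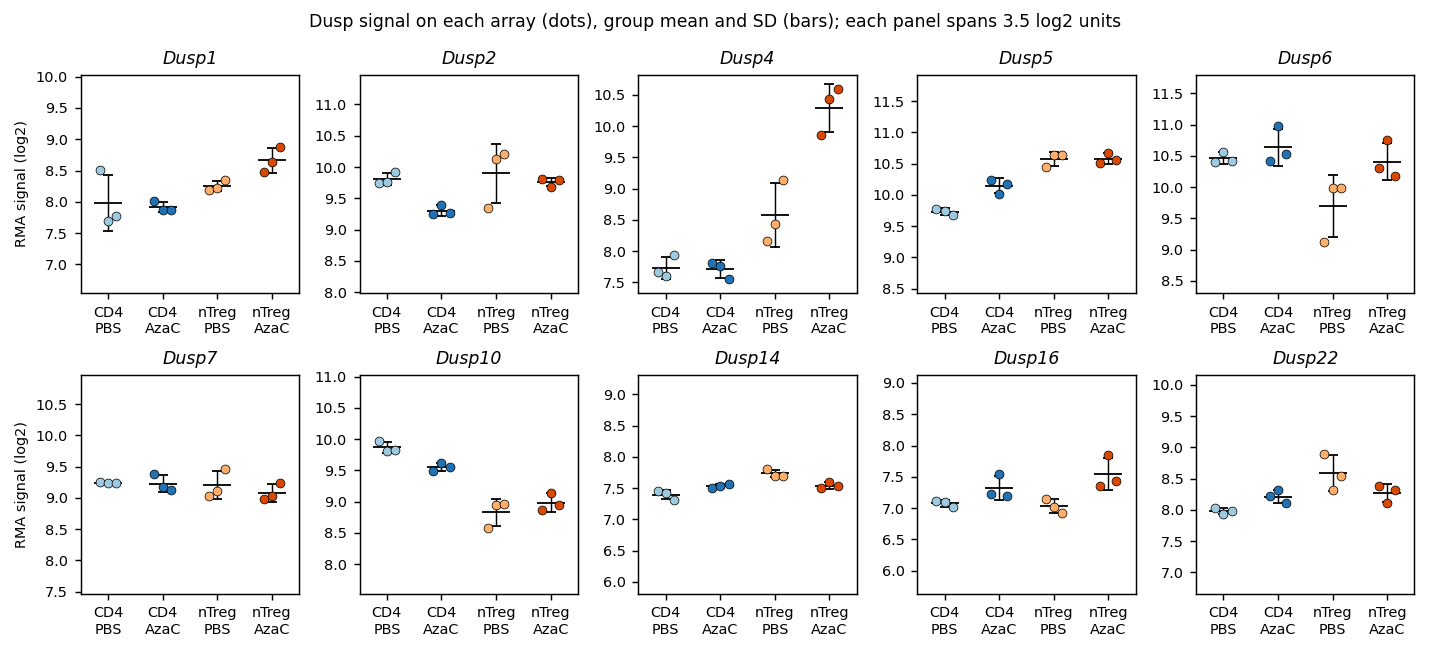
RMA signal (log2) of each Dusp gene in the 4 groups, with 1 dot per array and bars for the group mean and SD (n = 3). Each panel spans the same number of log2 units. Dusp4 rises from about the same level in both CD4 groups to 8.58 in nTreg PBS and 10.30 in nTreg AZA. Dusp10 is highest in CD4 PBS (9.87) and lower in nTreg PBS (8.83) and nTreg AZA (8.99), which overlap.

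The first comparison asked how AzaC changed the phosphatases in nTregs. Dusp4 (MKP-2), a nuclear phosphatase of ERK and JNK, was the 1 member of 10 that passed the test, and it rose. Across all genes 2.02% were called in this comparison and 1.42% were called higher. The threshold was an adjusted p of 0.05 in limma, with the Benjamini-Hochberg procedure run over all 22180 genes, and a gene below it is said to be called. Called lower were 0.6% of all genes and 0 members.

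Dusp4 read 8.17, 8.43 and 9.15 in the nTreg PBS arrays 1 to 3, and 9.87, 10.43 and 10.60 in the nTreg AZA arrays. All 3 AzaC arrays lay above all 3 PBS arrays. The difference was 1.72 (SE 0.22, 95% confidence interval 1.23 to 2.20) on the log2 scale, a 3.28-fold higher signal (limma adjusted p = 0.00130). Leaving out each array in turn gave differences from 1.51 to 2.00 and adjusted p-values from 0.000246 to 0.0109, and without nTreg PBS 1 the difference was 1.51. The CD8 T cell markers moved with it: the mean log2 signal of Cd8a and Cd8b1 lay between 8.35 and 8.96 in nTreg PBS and between 9.62 and 9.75 in nTreg AZA, against 8.46 to 8.55 in CD4 PBS and 8.11 to 8.54 in CD4 AZA. Cd8a was higher by 1.39 with AzaC in nTregs (limma adjusted p = 0.00180) and Cd8b1 by 0.72 (limma adjusted p = 0.0213). Without nTreg PBS 1 the Cd8b1 difference was 0.63 (limma adjusted p = 0.0547). Of the 7 myeloid and dendritic markers 5 had negative differences, and 1, Itgam, was called lower (−0.94, limma adjusted p = 0.0335). Their mean log2 signal lay between 6.69 and 6.82 in nTreg PBS and between 6.40 and 6.62 in nTreg AZA. The part of these markers in the Dusp4 result was not tested. In such bulk samples a change in the share of cells of a type and a change in RNA per cell cannot be told apart.

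The other nuclear, inducible members gave smaller differences that did not pass. Dusp1 (MKP-1), an immediate early gene that acts mainly on p38 and JNK, read 8.20, 8.21 and 8.35 in nTreg PBS and 8.48, 8.63 and 8.88 in nTreg AZA. Its groups did not overlap, and the difference was 0.41 (95% confidence interval 0.03 to 0.79, limma adjusted p = 0.261). Dusp2 (PAC-1), a nuclear phosphatase of activated T cells, read 9.35, 10.13 and 10.21 in nTreg PBS and 9.81, 9.68 and 9.79 in nTreg AZA. The PBS array 1 lay below all AzaC arrays and the other PBS arrays lay above them. The difference was −0.14 (limma adjusted p = 0.714), and −0.41 without nTreg PBS 1 (limma adjusted p = 0.0638). Dusp5, a nuclear phosphatase selective for ERK, averaged 10.58 in both groups, with a difference of 0.00 (95% confidence interval −0.22 to 0.22).

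Dusp6 (MKP-3), the cytoplasmic phosphatase of ERK, read 9.13, 9.99 and 9.98 in nTreg PBS and 10.30, 10.75 and 10.18 in nTreg AZA. All AzaC arrays lay above all PBS arrays, and PBS array 1 was the lowest. The difference was 0.71 (95% confidence interval 0.24 to 1.18, limma adjusted p = 0.125), and it was 0.42 without nTreg PBS 1 (limma adjusted p = 0.299). A dimmer second row for Dusp6, with signals from 5.50 to 6.08, differed by 0.04 and had a correlation of 0.06 with the brighter row over the 12 arrays. Dusp7, its cytoplasmic relative, had means of 9.20 and 9.08 and a difference of −0.12 (limma adjusted p = 0.638).

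Of the phosphatases that act on JNK and p38, Dusp16 (MKP-7) read 7.14, 7.02 and 6.92 in nTreg PBS and 7.36, 7.84 and 7.43 in nTreg AZA. The groups did not overlap, with a difference of 0.52 (95% confidence interval 0.22 to 0.81, limma adjusted p = 0.0730). Dusp10 (MKP-5) had a difference of 0.16 (limma adjusted p = 0.527) with overlapping groups. The atypical members lack the MAP kinase-binding domain of the others. Dusp14 (MKP-6), which restrains T cell receptor signalling, had a difference of −0.19 (limma adjusted p = 0.300), with all AzaC arrays below all PBS arrays. Dusp22, which removes an activating phosphate from the T cell kinase Lck, had a difference of −0.31 (95% confidence interval −0.60 to −0.02, limma adjusted p = 0.262). Its highest value was nTreg PBS 1, without which the difference was −0.16 (limma adjusted p = 0.600).

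In all, the values of 5 of 10 members did not overlap between the treatments in nTregs, 4 with AzaC above PBS and 1 below, where 24.5% of all genes did not overlap. Before adjustment, 5 of 10 members and 16.8% of all genes had a limma p under 0.05. The median difference was 0.08 over the members and −0.04 over all genes.

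In CD4 cells, AzaC left 0 of 10 members past the test, where 1.76% of all genes were called (0.83% higher and 0.933% lower). Unadjusted p-values in limma were under 0.05 for 3 of 10 members, against 15.2% of all genes. These were Dusp5, Dusp2 and Dusp10.

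Dusp5 read 9.78, 9.74 and 9.68 in CD4 PBS and 10.24, 10.01 and 10.18 in CD4 AZA. All AzaC arrays were higher, by a mean of 0.41 (SE 0.10, 95% confidence interval 0.19 to 0.63, limma adjusted p = 0.0628). Dusp2 read 9.74, 9.77 and 9.91 in CD4 PBS and 9.24, 9.40 and 9.26 in CD4 AZA. All AzaC arrays were lower, with a difference of −0.50 (95% confidence interval −0.88 to −0.13, limma adjusted p = 0.188). Without nTreg PBS 1, which enters this fit only through the shared variance, the same differences passed, with limma adjusted p = 0.0228 for Dusp5 and 0.00714 for Dusp2. Dusp10 read 9.97, 9.81 and 9.82 in CD4 PBS and 9.48, 9.61 and 9.55 in CD4 AZA. The groups did not overlap, and the difference was −0.32 (95% confidence interval −0.58 to −0.06, limma adjusted p = 0.228).

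The values of Dusp4 overlapped between treatments in CD4 cells. It read 7.66, 7.60 and 7.94 in CD4 PBS and 7.82, 7.77 and 7.55 in CD4 AZA, and neither group stood above the other. The difference was −0.02, with a 95% confidence interval from −0.50 to 0.46. Dusp16 (0.25), Dusp22 (0.23), Dusp6 (0.18) and Dusp14 (0.14) had positive differences, Dusp1 (−0.07) and Dusp7 (−0.01) negative ones, all with limma adjusted p-values of at least 0.414. Groups did not overlap for 6 of 10 members, 4 with AzaC higher (Dusp5, Dusp14, Dusp16, Dusp22) and 2 lower (Dusp2, Dusp10), against 23.6% of all genes. The Treg markers Foxp3 (1.57, limma adjusted p = 0.000207) and Il2ra (0.59, limma adjusted p = 0.00383) rose with AzaC in these cells. The other Treg markers, Ikzf2 (0.06), Tnfrsf18 (0.06) and Ctla4 (−0.16), were not called. The part of the Treg markers in the member differences was not tested.

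**Figure D2:**
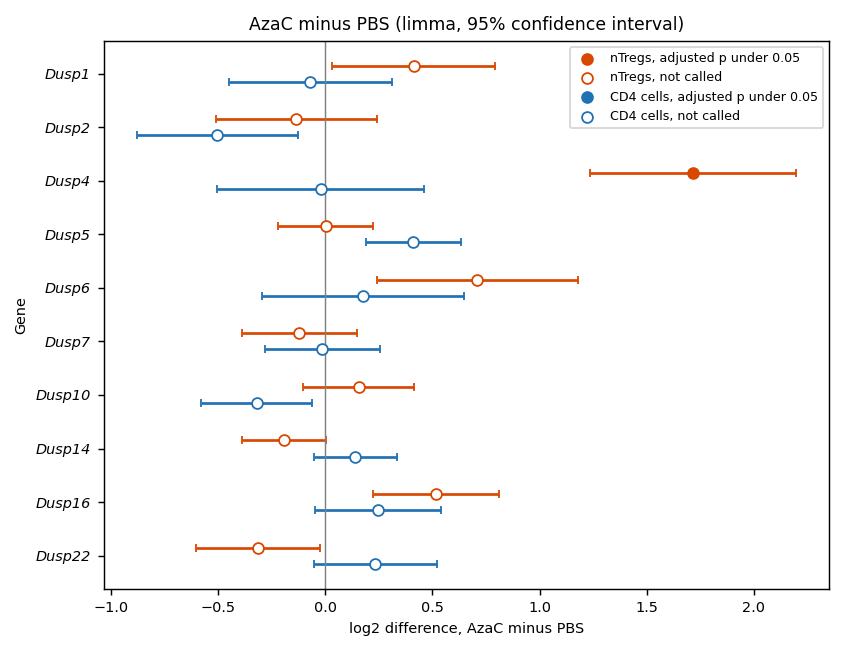
Difference AzaC minus PBS (log2, horizontal axis) of each Dusp gene in nTregs and in CD4 cells, with 95% confidence intervals from limma (n = 3 arrays a group); filled dots passed an adjusted p of 0.05. The nTreg value of Dusp4, 1.72, is the filled dot.

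The effect of AzaC in nTregs was then compared with its effect in CD4 cells by the interaction term, in which 0.203% of all genes, 45 in number, were called (0.144% positive and 0.0586% negative). Dusp4 was the 1 member called: its AzaC effect was larger in nTregs by 1.74 (SE 0.32, 95% confidence interval 1.06 to 2.42, limma adjusted p = 0.0468). This call was close to the threshold. Leaving out any of 11 of the 12 arrays, all but nTreg PBS 3, raised the adjusted p above 0.05, to between 0.0507 and 0.151, while the difference stayed between 1.53 and 1.95. It was 1.53 without nTreg PBS 1 (limma adjusted p = 0.0508). Cd8a had an interaction of 1.35 (limma adjusted p = 0.0666) and Cd8b1 of 1.00 (limma adjusted p = 0.0709). Unadjusted p-values in limma were under 0.05 for 5 of 10 members and 17.5% of all genes. Beside Dusp4 these were Dusp10 with 0.48, Dusp22 with −0.55, Dusp5 with −0.41 and Dusp14 with −0.33, all with limma adjusted p-values of at least 0.211. For Dusp5, Dusp14 and Dusp22 the estimate was positive in CD4 cells and between −0.31 and 0.00 in nTregs.

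The next comparison set nTregs against CD4 cells from the PBS cultures. By the sort described above, the populations also differed in the DsRed transgene and so in the donor mice. With either treatment, population and donor cannot be told apart in such comparisons. Here 6 of 10 members were called, 4 higher in nTregs (Dusp4, Dusp5, Dusp14, Dusp22) and 2 lower (Dusp6, Dusp10), where 8.01% of all genes were called, 3.9% higher and 4.12% lower. The called members differed by 1.27-fold to 2.06-fold. Their calls were of unequal firmness, and Dusp5 and Dusp10 were the 2 that passed without each array in turn.

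Dusp5 read 10.45, 10.64 and 10.64 in nTreg PBS, above the 9.68 to 9.78 of CD4 PBS. The difference was 0.84 (SE 0.10, limma adjusted p = 0.000146), and no left-out array raised the adjusted p above 0.00124. Dusp10 read 8.58, 8.95 and 8.96 in nTreg PBS, below the 9.81 to 9.97 of CD4 PBS. It was lower by 2.06-fold, with a difference of −1.04 (SE 0.12, limma adjusted p = 9.63e-05), and no left-out array raised the adjusted p above 0.00101. The values of Dusp5 and Dusp10 thus separated the PBS groups in opposite directions.

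Dusp4 was higher in nTregs by 0.85 (SE 0.22, limma adjusted p = 0.0340), with its 8.17 to 9.15 above the 7.60 to 7.94 of CD4 PBS. That call was lost without CD4 PBS 1, 2 or 3 (adjusted p = 0.0955, 0.107 and 0.0548 in limma) and without nTreg PBS 3 (0.0886). Dusp22 read 8.89, 8.32 and 8.54 in nTreg PBS against 8.02, 7.93 and 7.98 in CD4 PBS. All nTreg arrays were higher, by a mean of 0.61 (SE 0.13, limma adjusted p = 0.0131), and the call was lost without CD4 PBS 2 (0.0517). Dusp14 read 7.81, 7.70 and 7.70 in nTreg PBS against 7.45, 7.42 and 7.32 in CD4 PBS. It was higher by 0.34 (SE 0.09, limma adjusted p = 0.0346), and leaving out 9 of the arrays took its adjusted p to between 0.0504 and 0.105. The difference was 0.30 without nTreg PBS 1 (limma adjusted p = 0.0712).

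Dusp6 was lower in nTreg PBS than in CD4 PBS, where it read 10.40, 10.57 and 10.42. The difference was −0.76 (SE 0.22, limma adjusted p = 0.0476). Leaving out 8 of the arrays ended this call, and without nTreg PBS 1, its lowest array, the difference was −0.48 (limma adjusted p = 0.140). Dusp1 (0.27, limma adjusted p = 0.394), Dusp2 (0.09), Dusp7 (−0.04) and Dusp16 (−0.05) did not pass. Dusp1 read 8.50 in CD4 PBS 1 but 7.69 and 7.77 in the other CD4 PBS arrays, and without CD4 PBS 1 its difference was 0.52 (limma adjusted p = 0.0349). Dusp2 differed by 0.36 without nTreg PBS 1 (limma adjusted p = 0.0470). Groups did not overlap for 6 of 10 members and 26.7% of all genes, and a limma p under 0.05 before adjustment was found for 6 of 10 members and 23% of all genes. The T cell markers Cd4 (−0.83, limma adjusted p = 0.00408) and Cd3e (−0.77, limma adjusted p = 0.0147) were lower in nTregs in the same comparison. The B cell marker Cd79b was higher (0.80, limma adjusted p = 0.00691), while the other B cell markers measured, Cd79a (−0.07), Ms4a1 (0.15) and Pax5 (0.04), were not called. The part of these markers in the member differences was not tested.

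With AzaC in the culture, 4 of 10 members were called between nTregs and CD4 cells, where 6.75% of all genes were called, 4.57% higher and 2.19% lower. Dusp4, Dusp1 and Dusp5 were higher in nTregs and Dusp10 was lower. Dusp4 stood at 9.87 to 10.60 in nTreg AZA and at 7.55 to 7.82 in CD4 AZA. The 5.99-fold difference, 2.58 on the log2 scale (SE 0.22, limma adjusted p = 6.83e-06), kept an adjusted p of at most 0.000103 without each array in turn. Both CD8 markers were also higher in nTregs here, Cd8a by 1.36 (limma adjusted p = 0.000454) and Cd8b1 by 1.27 (limma adjusted p = 7.85e-05). Cd79b was higher by 1.08 (limma adjusted p = 0.000716), while the other B cell markers measured, Cd79a (−0.08), Ms4a1 (0.13) and Pax5 (−0.21), were not called. The part of these markers in the Dusp4 difference was not tested.

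Dusp1 read 8.01, 7.86 and 7.88 in CD4 AZA, below the 8.48 to 8.88 of nTreg AZA. The difference was 0.75 (SE 0.18, limma adjusted p = 0.0197). The call was lost without CD4 AZA 1, 2 or 3 (adjusted p = 0.0513, 0.0610 and 0.0712 in limma) and without nTreg AZA 2 or 3 (0.0575 and 0.103). Dusp5 read 10.51, 10.67 and 10.56 in nTreg AZA, above all CD4 AZA arrays. Its difference was 0.44 (SE 0.10, limma adjusted p = 0.0194), and the call was lost without CD4 AZA 2 or 3 (0.0743 and 0.0523) and without nTreg AZA 2 or 3 (0.0904 and 0.0630). Dusp10 read 8.86, 9.14 and 8.95 in nTreg AZA, below all CD4 AZA arrays. It was lower, with a difference of −0.56 (SE 0.12, limma adjusted p = 0.0106), and the call was lost without nTreg AZA 1 (0.0621). Dusp2 differed by 0.46 without passing (limma adjusted p = 0.148), and it passed without nTreg PBS 1 (0.00478). Groups did not overlap for 5 of 10 members and 32.3% of all genes, and 5 of 10 members and 20.5% of all genes had a limma p under 0.05 before adjustment.

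**Figure D3:**
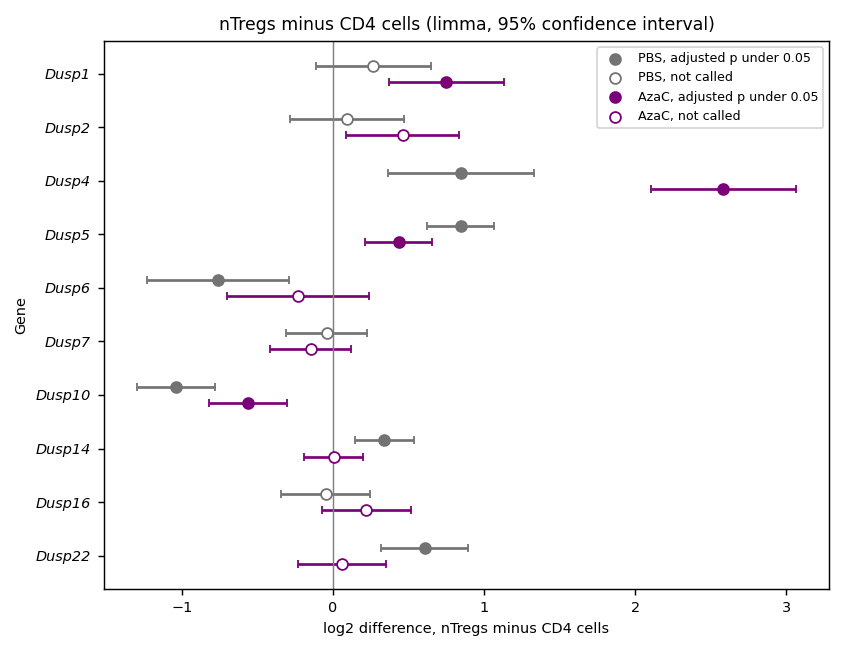
Difference nTregs minus CD4 cells (log2, horizontal axis) of each Dusp gene under PBS and with AzaC, with 95% confidence intervals from limma (n = 3 arrays a group); filled dots passed an adjusted p of 0.05. Dusp4 and Dusp5 lie to the right and Dusp10 to the left of 0 with both treatments.

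Across the 4 groups the members differed in how far their means spread. The means of Dusp4 spanned 2.58 log2 units, those of Dusp10 1.04, of Dusp6 0.94, of Dusp5 0.85 and of Dusp7 0.16. The remaining members spanned 0.34 (Dusp14) to 0.75 (Dusp1). Dusp4 ran from nTreg AZA (10.30 ± 0.38, SD, n = 3) through nTreg PBS (8.58 ± 0.51) to CD4 PBS (7.74 ± 0.18) and CD4 AZA (7.71 ± 0.14), and the last 2 overlapped. Dusp10 ran from CD4 PBS (9.87 ± 0.09) through CD4 AZA (9.55 ± 0.07) to nTreg AZA (8.99 ± 0.14) and nTreg PBS (8.83 ± 0.21), with the nTreg groups overlapping. Dusp5 had overlapping nTreg groups at the top (10.58 ± 0.08 with AzaC and 10.58 ± 0.11 with PBS), then CD4 AZA (10.14 ± 0.12) and CD4 PBS (9.73 ± 0.05), and these last 2 did not overlap.

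Dusp1 was highest in nTreg AZA (8.67 ± 0.20), which stood clear of nTreg PBS (8.25 ± 0.08) and was reached by CD4 PBS 1, while nTreg PBS, CD4 PBS (7.99 ± 0.45) and CD4 AZA (7.92 ± 0.08) overlapped as neighbours. Dusp2 was lowest in CD4 AZA (9.30 ± 0.08), below all arrays of CD4 PBS and nTreg AZA, while nTreg PBS 1 (9.35) lay within its range. The other group means lay between 9.76 and 9.90. Dusp6 was lowest in nTreg PBS (9.70 ± 0.49), and the other groups overlapped, with means between 10.41 and 10.64. Dusp14 was highest in nTreg PBS (7.73 ± 0.06), overlapped between nTreg AZA (7.54 ± 0.05) and CD4 AZA (7.54 ± 0.03), and was lowest in CD4 PBS (7.40 ± 0.07). Dusp16 was higher in both AzaC groups (7.54 ± 0.26 in nTregs and 7.32 ± 0.20 in CD4 cells) than in CD4 PBS (7.08 ± 0.06) and nTreg PBS (7.03 ± 0.11). Dusp22 was lowest in CD4 PBS (7.98 ± 0.05), below CD4 AZA (8.21 ± 0.10). Its nTreg AZA values (8.27 ± 0.15) overlapped with those of CD4 AZA and of nTreg PBS (8.58 ± 0.29), but the last 2 did not overlap with each other. The group means of Dusp7 lay between 9.08 and 9.24, and neighbouring groups overlapped throughout.

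Pairs of members ran together or apart across the arrays. Over the 12 arrays, Pearson's r was −0.89 between Dusp5 and Dusp10, −0.84 between Dusp10 and Dusp22, −0.79 between Dusp10 and Dusp14, 0.82 between Dusp14 and Dusp22 and 0.83 between Dusp1 and Dusp4. The points are arrays of 4 groups, so these values mostly restate the group differences given above.

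Genes with the most similar pattern over the 12 arrays were taken for the member with the largest difference in 3 comparisons. For Dusp4 they were Mxd1 (r = 0.971), a partner of Max that opposes Myc, Fam160a1 (0.962), Cd86 (0.962), a costimulatory ligand, Irs2 (0.962), an adaptor of the insulin receptor, and Zscan29 (0.959). With AzaC in nTregs they differed by 0.89, 0.97, 0.99, 1.11 and 0.58, less than the 1.72 of Dusp4, and in CD4 cells by −0.12 to 0.20. For Dusp10 they were H2-T24 (0.981), a non-classical MHC class I gene, Sh3bp5 (0.974), A430107P09Rik (0.973), Dck (0.969), which encodes deoxycytidine kinase, and Pstpip1 (0.968). These were lower in nTregs than in CD4 cells under PBS by estimates of −0.61 to −0.89, against −1.04 for Dusp10. For Dusp2 they were Ctps2 (0.949), which makes CTP, Stxbp2 (0.945), Aplp1 (0.945), Gapdh (0.945), the glycolytic enzyme, and Ripk3 (0.937), a kinase of necroptosis. In CD4 cells their AzaC differences were −0.16 to −0.45, against −0.50 for Dusp2. Deviations from the group means correlated with those of the member by 0.48 to 0.84 for Dusp4, 0.61 to 0.91 for Dusp10 and 0.88 to 0.96 for Dusp2. The likeness thus includes scatter within groups, most of all for Dusp2. The SD of Dusp2 was 0.48 in nTreg PBS and 0.07 to 0.09 in the other groups. Its scatter is thus mostly that of nTreg PBS 1, the array that stood apart, which read 9.35 against 10.13 and 10.21. The part of this array in the likeness was not tested.

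The rest of the Dusp family and the MAP kinase pathway were described beside the members. All 14 other Dusp genes listed were measured, and 0 were called in any of the 5 comparisons in limma, although Dusp3 (0.42 in nTregs against CD4 cells under PBS) differed by 0.69 and was called without nTreg PBS 1 (limma adjusted p = 0.0112). Before adjustment, the number with a limma p under 0.05 was 0 for AzaC in nTregs, 2 for AzaC in CD4 cells and 1 each in the interaction and in the comparisons of nTregs with CD4 cells under PBS and with AzaC. Of all genes, 16.8%, 15.2%, 17.5%, 23% and 20.5% had such a p in that order. Called were 2.02%, 1.76%, 0.203%, 8.01% and 6.75% of all genes, so 0 calls in so few genes say little. Their smallest limma p-values belonged to Dusp8 in nTregs (−0.18, adjusted p = 0.400) and Dusp28 in CD4 cells (−0.30, adjusted p = 0.147). The 3 tyrosine phosphatases of MAP kinases, Ptpn5, Ptpn7 and Ptprr, likewise gave 0 calls in the 5 comparisons, with Ptpn7 at 0.36 in nTregs (limma adjusted p = 0.225, and 0.20 without nTreg PBS 1) and Ptprr at 0.26 in CD4 cells (limma adjusted p = 0.283).

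Among 76 measured genes of the other Dusp genes and the pathway, 13 were called between nTregs and CD4 cells under PBS, 5 higher and 8 lower, where 8.01% of all genes were called, 3.9% higher and 4.12% lower. The lower genes included 2 of 6 MAP kinase kinases (Map2k3 and Map2k6, activators of p38), 2 of 11 MAP kinase kinase kinases (Map3k2 and Map3k14) and 3 of 7 genes of Ras activation. The last were Rasgrp1 (−0.86, limma adjusted p = 0.000391), the exchange factor that activates Ras in T cells, Lat (−0.43) and Shc1 (−0.75). Rps6ka3 (−0.55), a kinase activated by ERK, was the remaining lower gene. The higher genes were Mapk13 (0.97, limma adjusted p = 0.00266), a p38 kinase, the ERK pathway inhibitors Spry1 (0.40) and Spred1 (0.48), and the ERK-induced genes Fos (0.87) and Etv5 (1.12, limma adjusted p = 0.000175). Of the 13, Etv5, Fos, Map2k6, Map3k14, Mapk13 and Rasgrp1 stayed called without each array in turn, and 5 (Lat, Map2k3, Map3k2, Shc1 and Spred1) lost the call without nTreg PBS 1. Centring the arrays ended the calls of Spry1 (limma adjusted p = 0.0596) and Spred1 (0.0720).

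With AzaC, 6 of the 76 were called between nTregs and CD4 cells, where 6.75% of all genes were called. Mapkapk2 (1.20), a kinase activated by p38, Fos (1.15), Junb (1.03), Etv5 (0.74) and Spry1 (0.53) were higher and Rasgrp1 (−0.45) was lower. Etv5, Fos, Mapkapk2 and Spry1 stayed called without each array in turn. The second row for Etv5 read 6.45, 6.15 and 6.19 in nTreg AZA and 6.69, 6.58 and 6.37 in CD4 AZA. Without each array in turn 4 to 12 of the 76 were called, 12 of them without nTreg PBS 1. The calls over all 22180 genes then ran from 896 to 2467, so the number called moved for all genes as well. Centring ended the Rasgrp1 call (limma adjusted p = 0.103). AzaC itself changed 2 of the 76 in nTregs, Fosb (0.84, limma adjusted p = 0.0399) and Egr1 (−0.70, limma adjusted p = 0.0255), both ERK-induced early genes. In that comparison 2.02% of all genes were called, and the pair moved in opposite directions. The Fosb call was lost without any of 10 arrays and the Egr1 call without nTreg PBS 3 or nTreg AZA 1, 2 or 3. In CD4 cells AzaC changed 1 of the 76, Map2k6 (−0.71, limma adjusted p = 0.0261), where 1.76% of all genes were called, and that call was lost without CD4 PBS 1 or 3 or CD4 AZA 1, 2 or 3. The interaction called 0 of the 76 in limma, where 0.203% of all genes were called.

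In each of the pathway lists with no call for AzaC in nTregs, the gene of smallest p was Mapk10 (−0.30, and −0.14 without nTreg PBS 1) for the MAP kinases, Map2k2 (0.24) and Map3k8 (0.39) for the kinases above them, Rasgrp1 (0.40, limma adjusted p = 0.103) for Ras activation, Spred2 (0.56, limma adjusted p = 0.135, and 0.33 without nTreg PBS 1) for the Sprouty and Spred inhibitors and Rps6ka5 (−0.63, limma adjusted p = 0.0631) for the MAP kinase-activated kinases. The same rule in CD4 cells gave Mapk13 (0.45), Map3k14 (−0.39), Nras (−0.20), Spred1 (0.32), Mapkapk3 (0.39, limma adjusted p = 0.173) and, of the ERK-induced genes, Ier3 (−0.37). None of these genes passed the test in that comparison.

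**Figure D4:**
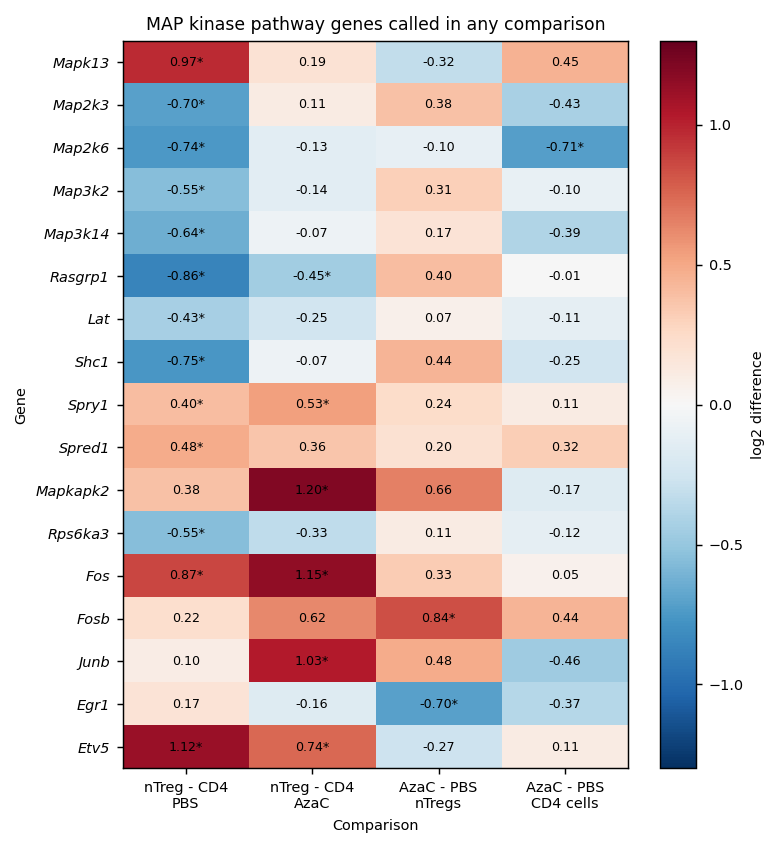
Log2 differences (colour and printed value) of the 17 MAP kinase pathway genes called in any comparison, in rows, in columns for the 2 population comparisons (nTregs minus CD4 cells, PBS then AzaC) and the 2 AzaC comparisons (nTregs then CD4 cells). Asterisks mark an adjusted p under 0.05 in limma, and 13 of them stand in the PBS column.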

How the data were processed

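Biotin-labelled RNA of 12 sorted T cell samples was hybridised to Affymetrix arrays with the WT Pico kit, per the labels. The deposited values are log2 signals. Per the submitters' processing notes the authors used RMA and Affymetrix Expression Console. The values were used unchanged. Versions and the annotation's build are not given in the sources used here. RMA quantile-normalises arrays, so a shift common to all genes would be removed. Of 41345 rows, 23521 carried exactly 1 symbol, which gave 22180 genes. limma 3.58.1 in R 4.3.3 fitted 1 mean per group to all 12 arrays (residual degrees of freedom 8, prior 5.95), with Benjamini-Hochberg adjustment over all genes. The median SE was 0.13 for a difference of 2 groups and 0.18 for the interaction, and the number of arrays limits the precision. The fit was also run on simulated data with independent noise, which do not cover an array that stands apart as nTreg PBS 1 does. Members, lists, tests and the naming rule were chosen with earlier results of these data known, among them the Dusp4 difference in nTregs, so that these are not independent support. Named genes were all members, every list gene called in any comparison, for lists with no call the gene of smallest p per AzaC comparison, and the 5 genes of highest r with 3 members. Alternatives were a dim-gene filter, centring, row means, a fit of the compared groups alone, a replicate block, array weights and leaving out each array. For the pathway and marker genes, leaving out arrays and centring were chosen after seeing the data.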

Additional observations from a re-analysis of the deposited data

Results flagged for a closer look

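The effect of AzaC on Dusp4 differed between the cell populations by a test of the difference itself. The difference AzaC minus PBS was 1.72 in nTregs and −0.02 in CD4 cells, so the interaction was 1.74 (limma adjusted p = 0.0468). The 3 nTreg AZA arrays lay above the 3 nTreg PBS arrays, and the CD4 groups overlapped. The interaction passed in the absence of nTreg PBS 3 and did not pass in the absence of any other single array (limma adjusted p from 0.0507 to 0.151).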

How the results depend on the processing

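Over 890 combinations of member, comparison and alternative, 825 kept their side of the threshold, 51 lost a call, 14 gained one and 0 reversed with a call. Changes of sign without a call are among the 825. With AzaC in CD4 cells, for example, Dusp1 ran from −0.22 to 0.19 without each array in turn. The alternatives moved the number of members called as follows. For AzaC in nTregs the 1 became 2 with the dim-gene filter (Dusp16, limma adjusted p = 0.0463), 2 with array weights (Dusp16, 0.0176) and 2 with the replicate block (Dusp6, 0.0480), and 1 to 1 without each array in turn. For AzaC in CD4 cells the 0 became 1 with the filter (Dusp5, 0.0356), 2 with array weights (Dusp2, 0.0156, and Dusp5, 0.0128), 1 with the compared groups fitted alone (Dusp2, 0.0450) and 0 to 2 without each array. The interaction gave 0 to 1 without each array. Under PBS the 6 became 2 with the compared groups alone (Dusp5 and Dusp10), 4 with centring, without Dusp4 (0.0563) and Dusp14 (0.0668), 5 with row means (Dusp6 at −0.46, 0.0502), 5 with the block (Dusp14, 0.0522) and 2 to 6 without each array. With AzaC the 4 became 5 with array weights (Dusp2, 0.00517), 5 with the compared groups alone (Dusp2, 0.0108) and 2 to 5 without each array.

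All genes called were 448 for AzaC in nTregs (1290 with array weights, 125 with the compared groups alone, 186 to 447 without each array), 391 in CD4 cells (1291 with weights, 164 to 1044 without each array), 45 for the interaction (79 with the filter, 91 centred, 401 with weights, 9 to 69 without each array), 1777 between populations under PBS (648 with the compared groups alone, 1042 to 1862 without each array) and 1498 with AzaC (3500 with weights, 2350 alone, 896 to 2467 without each array). Centring moved the share called higher from 70.31% to 83.13%, 47.06% to 29.04%, 71.11% to 92.31%, 48.62% to 37.71% and 67.62% to 82.07% in that order, and it shifted the median of all genes by 0.13 for the interaction. The causes were not tested.

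Deviations of same-numbered arrays correlated between −0.10 and 0.19 over all genes. Differently numbered arrays were not correlated for reference, and the labels do not give the source of the replicates. Whether the numbers pair the arrays is therefore not known. The replicate block changed no other member call. With 3 arrays a group, smaller differences than those called may be missed.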
